A study of Homo sapiens with 2 samples.

Results

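The carriers described here are 10 human genes that move copper, nucleosides and organic anions across membranes and that have been linked to the handling of anticancer drugs. They were taken by gene symbol from the probe annotation of the array, and they had 18 probes among 30113 probes with a single gene symbol. The whole table held 20046 named genes. SLC31A1, SLC31A2, ATP7A and ATP7B handle copper, and SLC29A1 and SLC29A2 handle nucleosides. SLCO2B1, SLCO3A1 and SLCO4A1 belong to a family of organic anion carriers, and SLC22A18 was named with the SLC22 organic ion carriers. SLC22A18 is listed in the annotation under its current name, SLC67A1, and its 2 probes were found through the Entrez gene ID. Of the 10 genes, 6 had 1 probe and 4 had several.

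The values come from 2 cultures with 1 Illumina bead array each. HCT-8 is a human colon cancer cell line in long use, and HCT-8/V was derived from it as a line resistant to vincristine, a drug that blocks the mitotic spindle. The labels give both the same treatment, transfer of a Twist expression plasmid (pcDNA3.1-Twist) 48 h before total RNA was taken, so an effect of the plasmid cannot be estimated, and if either culture did not receive it, the differences would include that effect. The labels do not say how HCT-8/V was selected or whether it is 1 clone. With no replicate array there is no test of any difference. Each difference is given as HCT-8/V less HCT-8 and describes these arrays. Where values are paired without a name, HCT-8 comes first.

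Copper enters cells through SLC31A1 and is passed by small chaperone proteins to enzymes, to mitochondria and to the ATP7A and ATP7B pumps, which load it into the secretory pathway or export it. The same proteins have been implicated in the uptake and efflux of platinum drugs. Equilibrative nucleoside carriers of the SLC29 family let nucleosides and drugs built like them, such as gemcitabine, cross the plasma membrane along their gradient. Carriers of the SLCO family (organic anion transporting polypeptides) take up bile salts, steroid conjugates, hormones and many drugs, and several are made in the intestine. Export of vincristine itself is best known from ABC pumps, which are a different family.

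Intensities were on a linear scale with the background already subtracted, so values below 0 occur. The median of all probes, 12.4 on both arrays, served as the floor, and a probe above it on at least 1 array is called expressed. The 75th percentile of all probes, 81.3 on both arrays, served as a higher floor that separates bright from dim probes. Probes with a mean below 0 differed between the arrays with an SD of 10.7 intensity units (13272 probes), which is the size of a difference that background alone gave. For each expressed probe, the SD of the log2 differences of the 500 named probes of most similar brightness is given as its spread. That spread holds differences between the lines as well as array noise, so it is no replicate error. Twist was read by its gene TWIST1 at 163 in HCT-8 against 185 in HCT-8/V. Of 12 colon epithelial markers, 5 were above the floor, among them KRT8 (2199 and 2283), KRT18 (445 and 559.8) and EPCAM (117 and 79.97), while CDH1, CDX1, CDX2, CEACAM5, KRT20, LGALS4 and VIL1 were below it on both arrays. CDH17 read 66.4 and 65.6, and KRT19 lay close to the floor, at 12.8 and 12.8. Of the 12, only 2 (KRT8 and KRT18) were above the higher floor on both arrays, and 7 were below the floor on both. The labelled colon origin was therefore weakly matched by these markers, and it was not checked against a reference profile. The summed intensity of the 12 was 2857 in HCT-8 against 3016 in the resistant line. Fibroblast markers were above the floor for 5 of 6 genes, and their summed intensity was 922 in HCT-8 against 1242 in HCT-8/V, with COL1A2 below the floor on both. Most of that sum was DCN (625 and 854). DCN and PDGFRB (149 and 218) were the 2 above the higher floor on both arrays. COL1A1 (53.6 and 87.7) was higher in HCT-8/V and COL3A1 (73.1 and 55.0) lower, while LUM (10.9 and 18.8) was above the floor in HCT-8/V only. Of the 4 leukocyte markers measured only CD14 was above the floor, with CD3E, LYZ and PTPRC below it, and of 4 endothelial markers PECAM1 and VWF were above it and CDH5 and KDR below it. The part of these markers in the differences described here was not tested.

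Of the 10 carriers, 9 were above the floor on their brightest probe, and SLC29A1 was not above it on either array. Of all 20046 named genes, 13763 were expressed by the same rule. In RNA from whole cultures, fewer cells that make a transcript and less of it per cell cannot be told apart. No carrier reached a 2-fold difference on its brightest probe, against 8.01% of the 13763 expressed genes, so a count of 0 among so few genes does not set them apart. Of the 9 carriers above the floor, all on both arrays, 5 were higher in HCT-8/V and 4 lower, where 52.8% of all expressed genes were higher and 47.1% lower. Differences of at least 1.5-fold occurred in 2 of the 9, ATP7B and SLCO2B1, both dim, against 24% of expressed genes. The median log2 difference of the 9 was 0.12, and that of all expressed genes was 0.03. At the higher floor 6 carriers remained, 3 higher and 3 lower, beside 53.5% and 46.4% of the 8009 genes there. No carrier was past 2-fold at that floor, and 0.612% of all genes were. Values below that floor are raised to it, which in part keeps genes near it from reaching 2-fold. The median absolute log2 difference there was 0.27 for the 6 carriers and 0.22 for all genes.

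**Figure D1:**
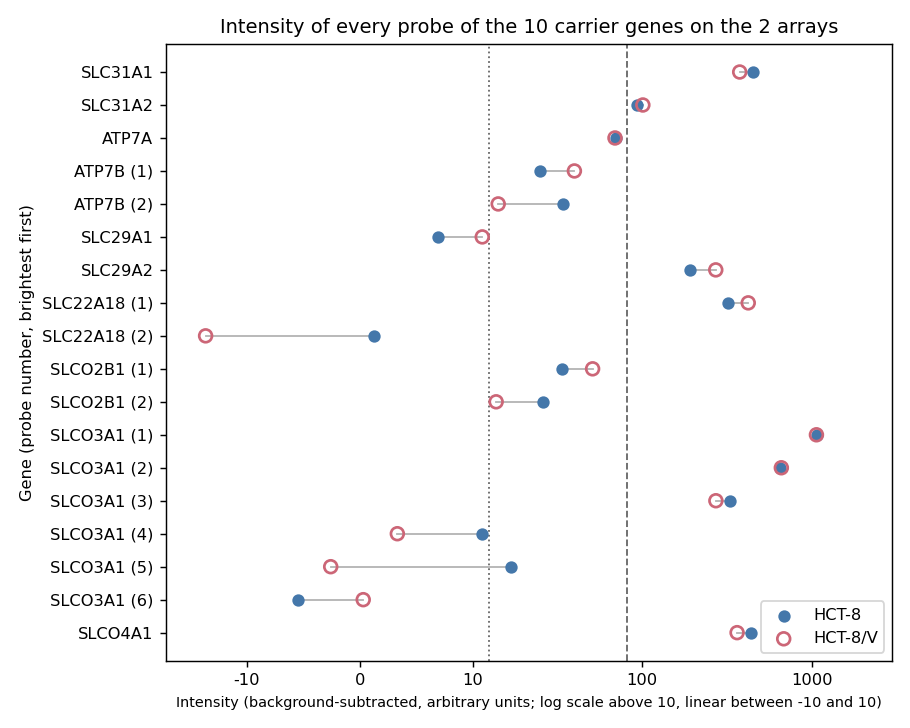
Intensity of each of the 18 probes of the 10 carrier genes in HCT-8 (filled blue) and HCT-8/V (open red), joined by a grey line, on an axis that is logarithmic above 10 and below -10 and linear between; the dotted line is the floor and the dashed line the higher floor. The probes above the dashed line on both arrays, 8 in all, lie close together in each pair, while the dimmer pairs point both ways and most are wider, ATP7A being an exception.

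Copper uptake was read by 1 probe per gene. SLC31A1, the high-affinity copper importer of the plasma membrane (CTR1), which is also linked to cisplatin uptake, read 454 in HCT-8 against 376 in the resistant line. HCT-8/V was lower by a log2 difference of -0.27 (1.21-fold), which was 0.78 times the spread of 0.35 among probes of similar brightness. SLC31A2, the related protein of intracellular vesicles (CTR2) that takes part in releasing stored copper, read 92.7 in HCT-8 against 101 in HCT-8/V. Its log2 difference of 0.12 was 0.25 times its spread of 0.48, and the gap of 8.16 units was within the background SD. Only 1 protein-coding gene lies between them in the RefSeq order of GRCh38.p14, and their differences had opposite signs.

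Copper export was even on the probe for ATP7A and unresolved for ATP7B. ATP7A, the copper pump that delivers dietary copper from the intestinal cell to the blood and that is defective in Menkes disease, read 69.8 in HCT-8 against 69.1 in the resistant line. That is a log2 difference of -0.01 with a spread of 0.53, and the smallest gap in intensity units of any carrier probe, -0.688. ATP7B, the pump that exports copper into bile and is defective in Wilson disease, had 2 probes. The brighter read 24.9 in HCT-8 against 39.8 in HCT-8/V, which is a log2 difference of 0.68 (1.60-fold higher). The other read 34.2 in HCT-8 against 14.1 in the resistant line, a log2 difference of -1.28 (2.42-fold lower). The probes thus pointed in opposite directions, and each difference was less than 2 times the background SD, at 1.39 and -1.87 times. Of the probes of similar brightness, 23% and 31.8% were at least 2-fold apart, so no direction can be given for ATP7B.

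The regions just upstream of the copper genes are shown because the transferred factor, Twist, binds E-boxes, whose letters are CANNTG. They are RefSeq sequences of the 250 bases before a transcription start in GRCh38.p14, 5′ to 3′ on the strand of the gene, with E-boxes in capitals. The windows are chr9:113221294-113221543 on the plus strand for SLC31A1, chrX:77910443-77910692 on the plus strand for ATP7A and chr13:52012133-52012382 on the minus strand for ATP7B.
SLC31A1: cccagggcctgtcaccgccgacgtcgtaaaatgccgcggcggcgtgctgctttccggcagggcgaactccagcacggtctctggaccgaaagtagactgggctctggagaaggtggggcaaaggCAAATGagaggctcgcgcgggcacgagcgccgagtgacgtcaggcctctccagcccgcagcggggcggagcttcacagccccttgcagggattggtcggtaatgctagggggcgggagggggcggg
ATP7A: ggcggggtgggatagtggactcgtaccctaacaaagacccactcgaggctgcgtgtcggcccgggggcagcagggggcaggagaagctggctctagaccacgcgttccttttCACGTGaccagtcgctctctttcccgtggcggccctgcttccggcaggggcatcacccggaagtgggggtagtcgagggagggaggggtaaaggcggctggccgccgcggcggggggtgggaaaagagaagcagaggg
ATP7B: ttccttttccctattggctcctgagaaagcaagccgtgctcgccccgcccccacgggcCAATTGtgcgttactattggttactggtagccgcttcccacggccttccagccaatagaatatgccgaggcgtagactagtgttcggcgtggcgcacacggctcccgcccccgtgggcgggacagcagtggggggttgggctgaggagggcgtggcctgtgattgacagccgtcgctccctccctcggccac
Each of these printed windows held 1 E-box, which was CAAATG for SLC31A1, CACGTG for ATP7A and CAATTG for ATP7B. ATP7B had further windows that are not printed. The one at chr13:52012009-52012258 held the E-box CAGGTG, and the one at chr13:51981505-51981754 held 0 E-boxes. The printed SLC31A1 and ATP7B windows each held 3 GC boxes (GGGCGG), the motif of SP1, and the ATP7A window held none.

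Of the 10 carriers, 7 matched an upstream window, with 13 windows in all for SLC31A1, ATP7A, ATP7B, SLC29A1, SLC22A18, SLCO2B1 and SLCO3A1. Some windows of one gene overlap, as for ATP7B and SLC22A18. SLC31A2, SLC29A2 and SLCO4A1 had no entry. An E-box was present in 6 of the 13 windows, against 61.8% of 35116 RefSeq windows of the same length. The form CATCTG, which is one kind of CANNTG and the form often used as a Twist site, was in 0 of 13, against 12.2% of all windows. A GC box was in 9 of 13 (42.6% of all windows). The core of the metal response element, searched as TGCACNC and TGCGCNC, was in 5 of 13 (24.8% of all). The windows printed above for SLC31A1, ATP7A and ATP7B each held 0 such cores. Each motif was searched on both strands, and sites of different motifs were counted even where they overlapped. A match describes the letters in these windows and says nothing about binding in these cells.

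Nucleoside uptake was read by 1 probe per gene, and only SLC29A2 was expressed. SLC29A1 (ENT1), the main carrier for gemcitabine and cytarabine in many cells, read 6.92 in HCT-8 against 11.4 in HCT-8/V. Both values were below the floor, so no fold is given, and 1 probe of a known transcript at the floor does not show that the gene was silent. SLC29A2 (ENT2), which also carries nucleobases, read 192 in HCT-8 against 272 in the resistant line. HCT-8/V was higher by a log2 difference of 0.50 (1.41-fold) with a spread of 0.37. The gap of 79.5 units was 7.40 times the background SD, and the difference was 1.35 times the spread of similar probes. The gap was 9.42 times that SD for the brighter SLC22A18 probe, -7.20 times for SLC31A1 and -7.13 times for SLCO4A1. The background SD comes from probes with a mean below 0 and does not measure noise at this brightness. The log2 difference of SLC29A2 was the largest of any carrier probe above the higher floor. Of the probes of similar brightness, 0.8% were 2-fold apart, a threshold above the 1.41-fold seen here.

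SLC22A18 encodes an orphan carrier that was named with the SLC22 organic ion carriers and is now listed as SLC67A1. The gene lies in the imprinted region of chromosome 11p15, where the maternal copy is the expressed one. The brighter of its probes read 321 in HCT-8 against 423 in HCT-8/V. This is a log2 difference of 0.39 (1.31-fold higher in HCT-8/V) with a spread of 0.36. Its second probe, annotated to another transcript of the gene, read 1.26 in HCT-8 against -17.5 in the resistant line. That probe was below the floor on both arrays, so the difference rests on 1 probe. The antisense gene that overlaps SLC22A18, SLC67A1-AS, read 22.8 in HCT-8 against 30.5 in HCT-8/V and was dim on both.

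The organic anion carriers ranged from bright and even to dim and unresolved. SLCO3A1, a widely made carrier of prostaglandins and other anions, had 6 probes, all annotated to 1 transcript. Its brightest probe read 1071 in HCT-8 against 1068 in the resistant line (1.00-fold apart), and the next read 649 in HCT-8 against 663 in HCT-8/V (1.02-fold apart). The third read 331 in HCT-8 against 272 in the resistant line, a log2 difference of -0.28 with a spread of 0.36. The bright probes thus showed no gap beyond 1.22-fold. Of the remaining probes, the fourth read 11.3 and 3.32, the fifth 16.7 and -2.58 and the sixth -5.52 and 0.297 in HCT-8 and HCT-8/V. Only the fifth was above the floor, in HCT-8 alone, so that the resistant line lay at least 1.35-fold lower when set against the floor. Probes of a single annotated transcript therefore covered the range from bright to background on the same array.

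SLCO4A1, a carrier of thyroid hormones and other anions, read 439.7 in HCT-8 against 363 in HCT-8/V on its single probe. HCT-8/V was lower by a log2 difference of -0.28 (1.21-fold) with a spread of 0.36. That difference was 0.77 times its spread, much as for SLC31A1. SLCO2B1, an intestinal and hepatic carrier of steroid sulfates and statins, was dim on 2 probes. The brighter read 33.8 in HCT-8 against 50.9 in the resistant line, a log2 difference of 0.59 (1.51-fold higher). The other read 25.8 in HCT-8 against 13.7 in HCT-8/V, which is a log2 difference of -0.91 (1.88-fold lower). As for ATP7B, the probes disagreed in direction, and their gaps were 1.60 and -1.13 times the background SD.

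**Figure D2:**
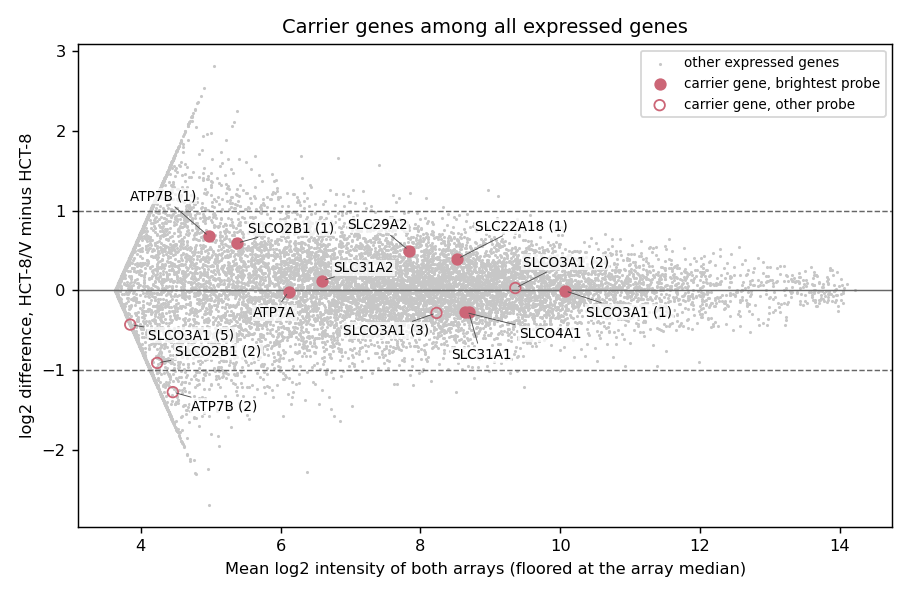
Log2 difference (HCT-8/V minus HCT-8) against mean log2 intensity, with values floored at the array median, for all 13763 expressed genes (grey, brightest probe), the 9 expressed carriers (filled red, brightest probe) and their other expressed probes (open red); numbers in brackets rank the probes of a gene by brightness and dashed lines mark 2-fold. Of the carrier probes, only the second probe of ATP7B (-1.28) lies beyond a dashed line, at the dim end where the grey cloud is widest.

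Over all 14 expressed carrier probes, 6 were higher in HCT-8/V and 8 lower, where 50.1% of all expressed named probes were higher and 49.9% lower. The 1 probe past 2-fold is 7.14% of the 14, close to the 8.54% of all expressed named probes. Measured against probes of similar brightness, 10 of the 14 differences were within 1 spread, and 0 reached 2 spreads. The same shares over all expressed probes were not computed. The SD of the log2 differences was 0.56 over the carrier probes and 0.56 over all 18739 expressed probes. Disagreement between probes was common across the array: among 2991 genes that had 2 or more probes over the floor in each line, the 2 brightest had the same sign in 56.0%. For the 1535 genes with 2 bright probes it was 60.3%. Of the carriers, ATP7B and SLCO2B1 had 2 such probes and opposite signs, and SLCO3A1 had a brightest pair with opposite signs and almost no difference.

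The list of other genes of copper handling held chaperones, metalloreductases, copper enzymes, the metal carrier SLC11A2, the adaptor subunit AP1S1 and the transcription factors MTF1 and SP1. Of 22 expressed genes among its 26 members, 14 were higher and 8 lower, where 52.8% of all expressed genes were higher, and the median log2 difference was 0.30, beside 0.03 over all expressed genes. That median was 0.07 with the mean log2 of all probes. At the higher floor the list was even, with 8 higher and 8 lower and a median of 0.11. Of all genes there 53.5% were higher and 46.4% lower, with a median of 0.03. CCS, the chaperone that loads copper into superoxide dismutase SOD1, read 105 in HCT-8 against 173 in the resistant line (log2 difference 0.73), and its second probe read 97.6 and 112 (0.20). SOD1 itself was bright and nearly even, at 7586 and 7201. ATOX1, the chaperone that hands copper to ATP7A and ATP7B, read 416 in HCT-8 against 507 in HCT-8/V (0.29). MTF1, the transcription factor that senses metals and drives metallothionein genes, was lower at 188 and 116 (-0.69). AP1S1, an adaptor subunit of the Golgi linked to the trafficking of ATP7A, was also lower, at 539 and 339.7 (-0.67). Past 2-fold were 2 of the 22, beside 8.01% of all expressed genes, and both were dim. The mitochondrial chaperone gene COX11 and the metalloreductase gene STEAP4 were at least 2.78-fold and at least 2.71-fold higher, with no reading in HCT-8 above the floor. SP1 read 385 in HCT-8 against 593 in the resistant line (0.62).

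Metallothioneins, which bind copper and zinc in the cytosol, were expressed for 4 of the 10 genes measured, beside 13763 of all 20046 genes. Of these 4, 3 were higher and 1 lower, where 52.8% and 47.1% of all expressed genes were. The median log2 difference was 0.26, beside 0.03 over all expressed genes. The lower one was MT2A, at 1277 in HCT-8 against 943 in HCT-8/V (-0.44). MT1E read 604 and 729 (0.27), but its dim second probe pointed down, at 27.4 and 8.19. MT1G was close to the higher floor, at 66.8 and 83.9 (0.33). No member was past 2-fold on its brightest probe, against 8.01% of all expressed genes.

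Among the other nucleoside carriers 3 of 5 were expressed, beside 13763 of all 20046 genes. Of these 3, 2 were higher and 1 lower, where 52.8% of all expressed genes were higher and 47.1% lower. SLC29A4, a relative of ENT1 that carries monoamines as well as adenosine, read 444 in HCT-8 against 671 in the resistant line, a log2 difference of 0.59, and its dim second probe read 13.0 and 27.6, also higher. SLC29A4 and SLC29A2 were thus the bright SLC29 probes, and both were higher in HCT-8/V, as were 53.5% of all genes at the higher floor. Of the concentrative carriers, SLC28A1 was dim and lower, at 15.4 and 13.1 (-0.23). The concentrative carriers SLC28A2 and SLC28A3 were below the floor on both arrays. Enzymes that activate or break down nucleoside drugs were split, with 12 of 22 higher, 10 lower, 0 past 2-fold and a median of 0.05. Of all expressed genes 52.8% were higher, 47.1% lower and 8.01% past 2-fold, with a median of 0.03. DCK, the kinase that activates gemcitabine and cytarabine, read 184 in HCT-8 against 137 in HCT-8/V (-0.42), but with the mean of its probes the log2 difference was 0.08. CDA, the deaminase that inactivates the same drugs, was even at 1181 and 1191. RRM2, a subunit of the ribonucleotide reductase that gemcitabine inhibits, was lower at 236 and 132 (-0.84). RRM1, another subunit of that enzyme, was lower by less, at 4676 and 3714 (-0.33). PNP, which cleaves purine nucleosides, was higher at 293 and 408 (0.48). TYMP, which splits thymidine, read 500.1 and 689.8 on its brightest probe (0.46), but -0.57 as the mean log2 difference of its 4 probes.

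The wider carrier families were read in the same way. Of 8 other SLCO genes 3 were expressed, beside 13763 of all 20046 genes. SLCO1B3, a hepatic carrier also found in colon cancers, read 146 in HCT-8 against 131 in the resistant line (-0.16). The prostaglandin carrier SLCO2A1 read 254 and 272 (0.10). Of 19 other SLC22 genes measured 10 were expressed, 3 higher and 7 lower, with a median of -0.09, where 52.8% of all expressed genes were higher and 47.1% lower. Only 2 of the 10 were above the higher floor, 1 higher and 1 lower. The cation and carnitine carriers SLC22A4 (149 and 139) and SLC22A5 (154 and 165) were the bright ones and differed by 0.10 on the log2 scale in opposite directions, SLC22A4 being the lower. Past 2-fold were SLC22A2 and SLC22A7, cation and anion carriers of kidney and liver, 2 of the 10 beside 8.01% of all expressed genes. Both were dim, and they were at least 2.97-fold and at least 2.21-fold lower. The mean log2 of all probes ended the 2-fold call for both, at -0.79 for SLC22A2, whose second probe was below the floor on both arrays (11.2 and 1.88), and -0.38 for SLC22A7. At the higher floor 0 of the genes in any of these lists were past 2-fold, against 0.612% of all genes there.

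Genes around SLC22A18 on 11p15 went both ways, with 6 of 10 expressed genes higher and a median of 0.11, where 52.8% of all expressed genes were higher. At the higher floor 4 were higher and 2 lower, beside 53.5% and 46.4% of all genes there. CDKN1C, the growth inhibitor of the same imprinted domain, read 309 in HCT-8 against 455 in HCT-8/V (0.56), and TSSC4 read 161 and 232 (0.53). The bright CD81 (2150 and 2379, 0.15) and NAP1L4 (1784 and 1869, 0.07) were nearly even. PHLDA2, a close imprinted neighbour with a dim probe, read 32.9 and 46.8 (0.51). H19, the imprinted non-coding RNA of the neighbouring domain, was bright and lower, at 5421 and 3965 (-0.45). Another neighbour above the higher floor, OSBPL5, was lower on its brightest probe, at 109.99 and 92.3 (-0.25), but even as the mean of its probes (0.01). The dim KCNQ1 was lower (46.8 and 31.7), and KCNQ1OT1 was below the floor on both. PHLDA2, SLC67A1-AS, OSBPL5, CD81 and NAP1L4 are named after their values were seen.

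**Figure D3:**
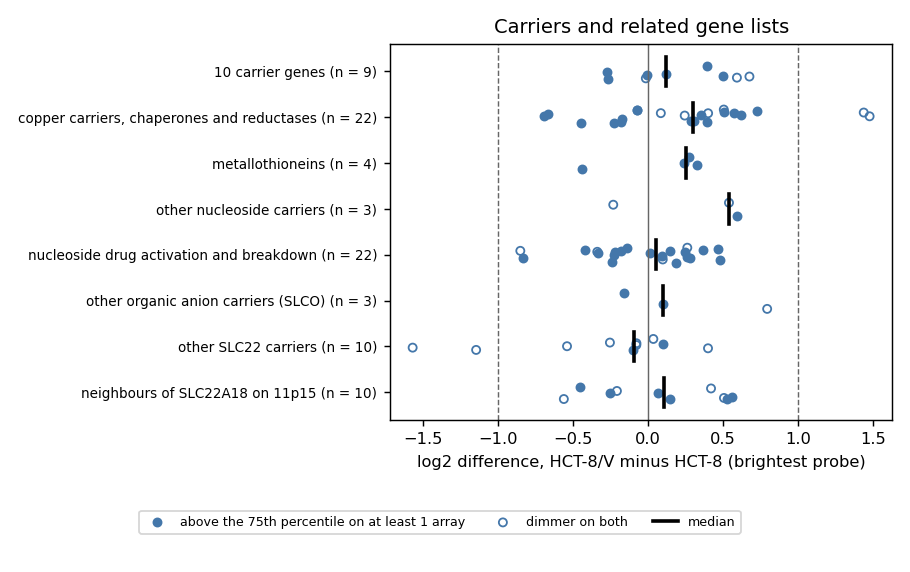
Log2 difference (HCT-8/V minus HCT-8) of each expressed gene, by its brightest probe, for the 10 carriers and 7 related lists; filled points were above the higher floor on at least 1 array, open points were dimmer, black bars are medians and dashed lines mark 2-fold. Each point past a dashed line is open, as for COX11, STEAP4, SLC22A2 and SLC22A7, and the filled points of each list with several of them lie on both sides of 0.

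**Figure D4:**
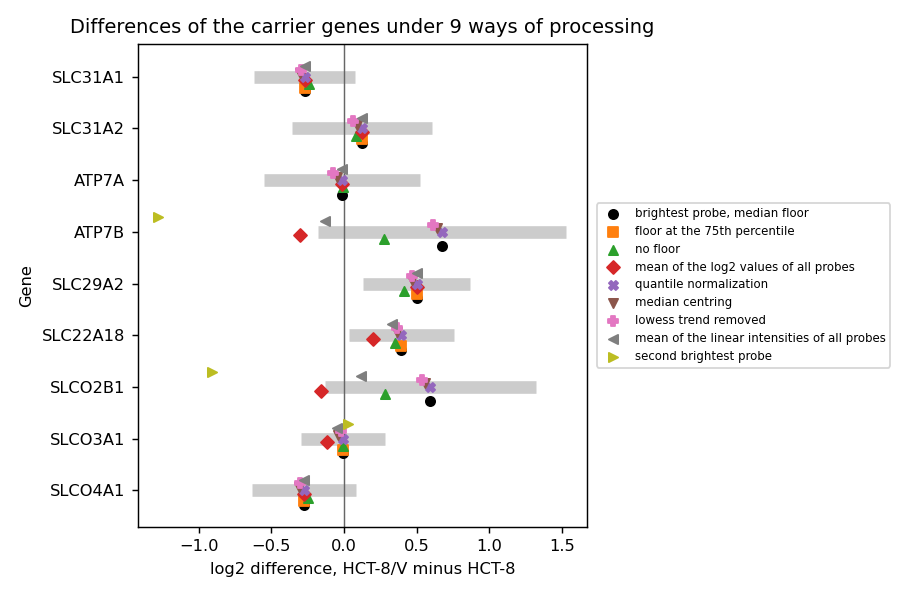
Log2 difference (HCT-8/V minus HCT-8) of the 9 expressed carriers under 9 ways of processing (symbols); grey bars reach 1 spread of similarly bright probes to each side of the brightest-probe value. SLC31A1, SLC29A2, SLC22A18 and SLCO4A1 keep their side of 0 under each way that gave a value, while ATP7B and SLCO2B1 cross 0 when their other probe is used. SLC31A1, SLC29A2 and SLCO4A1 have 1 probe each, so the probe rules could not change their values.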

How the data were processed

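Total RNA of 2 cultures was measured as biotin-labelled cRNA on Illumina bead arrays, 1 per line, per the labels' protocols. The deposited values are linear intensities, with a single one for each probe on each array. The authors' background correction and scaling are not given in the sources used here. Judged by the values, background was subtracted (29.2% of probes are below 0) and the distributions matched: sorted values of the arrays differed by at most 0.369. A common shift of most genes would thus not show.

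Of 47323 probes, 30113 had a single symbol and were used. Names were updated through Entrez IDs with RefSeq (GRCh38.p14, 30074 probes matched). The brightest probe by mean stood for a gene, values were floored at the array median and log2-transformed, and "at least" marks folds against the floor. With 1 array per line no test was run, and the number of arrays limits the precision. Computations used Python 3.11.15, pandas 2.3.3, numpy 2.4.6 and statsmodels 0.14.6. The computations were tested on simulated data with fold changes placed only in bright genes, so recovery of differences in dim probes was not tested.

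Members and lists were chosen with earlier results of these data known. Named genes are all members, the 3 list genes with the largest difference among bright ones, and list genes past 2-fold. Others named from the lists were added after their values were seen. They are SOD1, ATOX1, SP1, DCK, CDA, RRM1, SLC28A1, SLC28A2, SLC28A3, PHLDA2, SLC67A1-AS, OSBPL5, CD81, NAP1L4, KCNQ1 and KCNQ1OT1. Some genes of the lists and markers were not analysed here. Alternatives covered the floor, the probe rule, normalization and the fold threshold.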

Additional observations from a re-analysis of the deposited data

How the results depend on the processing

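The counts of carriers higher (5), lower (4) and at least 2-fold apart (0) held within 1.5 times with no floor (log2 of the intensity plus 45.98), quantile normalization, median centring and removal of a lowess trend (span 0.3). At the 75th percentile floor 3 carriers were higher, because ATP7B and SLCO2B1 then have no value, and 3 were lower, because ATP7A has none. With the mean log2 of all probes 3 were higher and 6 lower, since ATP7B and SLCO2B1 turned to -0.30 and -0.16. The second brightest probe, available above the floor for 3 genes, gave 1 higher, 2 lower and 1 past 2-fold (ATP7B, -1.28). A threshold of 1.5-fold gave 2 and one of 3-fold gave 0. Alternatives chosen after seeing the data were the mean of the linear intensities of all probes, which gave 4 higher and 5 lower with ATP7B at -0.13 and SLCO2B1 at 0.12, and the exclusion of SLC22A18, which gave 4 and 4. Of 63 single-gene values 59 moved by less than 1 spread, and the other 4 are the ATP7B and SLCO2B1 values with their second probe or the mean log2 of both. Much of that count was fixed in advance. For genes with 1 probe the probe rules return the same value, as does the higher floor for genes above it on both arrays. Quantile normalization changed almost nothing because the distributions already matched. SLCO3A1 changed sign once, at 0.03. The median of the copper handling list was 0.07 with the mean log2 of all probes. The list medians changed sign under some alternatives for metallothioneins (lowest -1.14), drug-activating enzymes (lowest -0.17), SLCO genes (lowest -0.03) and SLC22 genes (highest 0.33). No paired analysis was possible because each line has 1 array, and leaving out an array leaves no comparison. Signal over background limits ATP7A, ATP7B, SLC29A1 and SLCO2B1, whose probes were all below the higher floor.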

Other observations

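Agreement between probes of one gene was low over the whole table. Across the 1535 genes with 2 probes above the higher floor on both arrays, the log2 differences of the 2 brightest probes had a Pearson correlation of 0.31, and across the 2991 genes with 2 probes above the floor it was 0.16. These are descriptions across genes, which share the same 2 arrays and are not independent replicates. The between-probe SD per probe was 0.28 for the bright pairs, beside an SD of 0.34 for the differences of all genes at the higher floor. SLC29A2, at 0.50, is the bright carrier with the largest difference, and it has 1 probe, so agreement between probes could not be checked for it.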
